A study of Mus musculus with 2 samples.

Results

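The monocyte chemokine receptor gene Ccr2 and the 4 ligand genes Ccl2, Ccl7, Ccl8 and Ccl12 were followed in single-cell RNA libraries of tumour-infiltrating leukocytes. These 5 genes were picked by symbol out of 27998 genes, and all 5 had counts in both libraries. Of the 2 libraries, 1 was made from responders and 1 from non-responders among C57BL/6 mice bearing subcutaneous MC38-GFP tumours, a colon adenocarcinoma line marked with green fluorescent protein. Every mouse of either group had received 50000 tumour cells and then anti-PD-1 antibody at 100 ug, a dose described as sub-optimal, on days 12, 15, 18 and 22. Leukocytes positive for CD45 were sorted before capture in droplets, and the number of mice behind each library was not given. With 1 library per group there was no replicate check, so each difference below separates these 2 libraries and no p-value was computed. Brackets hold 95% intervals, which cover counting error only.

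CCR2 is the G protein-coupled receptor through which classical, Ly6C-high monocytes leave the bone marrow and enter inflamed tissue and tumours, and its expression declines as monocytes mature into macrophages. CCL2, CCL7 and CCL12 are CC chemokines that bind CCR2 and are secreted by macrophages, fibroblasts and tumour cells. CCL12 is a mouse chemokine related to CCL2. CCL8 binds CCR2 in humans, while the mouse protein has also been described as a ligand of CCR8. Transcripts and not proteins were measured here, so nothing below speaks of secretion or of surface receptor.

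The 4 ligand genes lie side by side on chromosome 11 of the GRCm38 build and each is protein-coding with 3 exons on the plus strand, according to the GENCODE M21 annotation. Ccl2 (ENSMUSG00000035385) spans chr11:82035571-82037453, Ccl7 (ENSMUSG00000035373) chr11:82045712-82047525, Ccl12 (ENSMUSG00000035352) chr11:82101845-82103400 and Ccl8 (ENSMUSG00000009185) chr11:82115185-82116799. The ligands fit into 81.2 kb, with Ccl11 between Ccl7 and Ccl12. Ccr2 (ENSMUSG00000049103) lies apart, at chr9:124101950-124113557 on the plus strand. The longest stretch of identical bases shared by the transcripts of any pair of ligands was 23 bases, between Ccl2 and Ccl7.

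Ccl8 and Ccl12 are the neighbouring ligands that differed in opposite directions between the libraries, and their starts are 13.3 kb apart. Their upstream sequences are printed for that reason, as the 250 bases before the RefSeq start on GRCm38.p6, plus strand, with a TATA box match in capitals. The Ccl8 window is chr11:82114935-82115184 and the Ccl12 window is chr11:82101595-82101844.
Ccl8: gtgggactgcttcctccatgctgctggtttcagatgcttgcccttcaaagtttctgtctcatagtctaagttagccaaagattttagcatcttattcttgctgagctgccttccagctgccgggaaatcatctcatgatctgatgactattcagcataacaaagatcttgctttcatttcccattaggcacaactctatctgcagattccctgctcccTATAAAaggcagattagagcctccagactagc
Ccl12: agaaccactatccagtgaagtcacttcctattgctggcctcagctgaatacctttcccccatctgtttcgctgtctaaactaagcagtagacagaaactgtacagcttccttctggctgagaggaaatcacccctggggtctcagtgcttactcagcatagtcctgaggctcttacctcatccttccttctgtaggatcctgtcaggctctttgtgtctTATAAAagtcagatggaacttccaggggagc
TATAAA began 32 bases before the start of Ccl8 and 31 bases before that of Ccl12, and 12.4% of 32851 promoter windows of this length hold that motif on either strand. In pairwise global alignments the Ccl8 and Ccl12 windows were identical at 65.2% of the bases aligned outside gaps, against 58.7% for Ccl8 and 59.5% for Ccl12 when each was set beside the Ccr2 window. That Ccr2 window, chr9:124101933-124102182, precedes the RefSeq start but lies mostly inside the GENCODE span given above. Neither the Ccl8 nor the Ccl12 window held the GAS motif TTCNNNGAA, the core of the ISRE motif, the AP-1 motif TGANTCA or the NF-kB motif on either strand, which are found in 7.02%, 2.98%, 6.75% and 7.25% of the windows. Such matches describe letters in a window and not binding. No window was at hand for Ccl2 and Ccl7.

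After filtering there were 4376 responder and 2565 non-responder cells, with medians of 10043 and 11752 unique molecular identifiers (UMIs, 1 per captured RNA molecule). Of the cell barcodes, 14 occurred in both libraries. Clusters were made with the 5 genes left out of the variable genes. Monocyte/macrophage-like cells made up 93.9% of responder cells and 91.6% of non-responder cells. Within them, macrophage-like cells carried 12 of 14 macrophage markers in the responder library, and 13 of 14 in the other, at 50 CPM or more (CPM being counts scaled to a fixed total). The monocyte-like clusters carried 5 and 8 of 10 monocyte markers by the same rule, and they too carried 12 and 13 of 14 macrophage markers. Summed over the 14, these markers were at 32898 and 16407 CPM in monocyte-like cells, against 45984 and 40890.0 CPM in macrophage-like cells, of the responder and non-responder library in each pair. Most responder cells of the monocyte-like class lay in cluster 3, which leads with Ly6i, Ifitm1 and Ly6c2 (685 responder and 20 non-responder cells). Most non-responder cells of that class lay in cluster 10, which leads with S100a8, Cxcl3 and Slpi (52 responder and 185 non-responder cells). Ptprc, the gene of CD45, was at 180.1 CPM in responder and 131.0 CPM in non-responder cells of any class, and at 9.06 and 3.75 CPM in the few fibroblast-like cells.

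Across monocyte/macrophage-like cells the ligands did not move together. Ccl8 was higher in the responder library, Ccl2, Ccl12 and the receptor gene Ccr2 were lower, and Ccl7 was nearly level. Levels are counts summed over the cells of a class, in CPM of that sum, and the log2 ratio is responder over non-responder. Ccl8 stood at 284.3 CPM [279.3-289.4] in responder and 50.8 CPM [48.3-53.5] in non-responder cells, a log2 ratio of 2.48 [2.41, 2.56]. Ccl2 stood at 662.1 CPM [654.4-669.8] in responder and 1177 CPM [1165-1190] in non-responder cells, a log2 ratio of -0.83 [-0.85, -0.81]. Ccl12 stood at 894.3 CPM [885.3-903.3] in responder and 2068 CPM [2051-2084] in non-responder cells, a log2 ratio of -1.21 [-1.23, -1.19].

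Ccl7 stood at 847.2 CPM [838.6-856.0] in responder and 826.1 CPM [815.7-836.5] in non-responder cells, a log2 ratio of 0.04 [0.01, 0.06] that became -0.01 with equal weight given to clusters found in both libraries. Ccr2 stood at 37.2 CPM [35.4-39.1] in responder and 103.0 CPM [99.4-106.7] in non-responder cells, a log2 ratio of -1.47 [-1.56, -1.38]. Over 2-fold, 1 of the 5 genes was higher in the responder library and 2 were lower. Of all 10852 genes tested in this class, 3.49% were over 2-fold higher and 4.38% over 2-fold lower in the responder library. The median log2 ratio was -0.40 over the 4 ligands and -0.09 over all genes tested, so the median of the ligands hides ratios of both signs. Scaling by the trimmed mean of M values (TMM) added 0.12 to every ratio and turned no direction.

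The class holds macrophage-like and monocyte-like clusters, and these were also read apart. In macrophage-like cells Ccl8 was at 300.03 CPM in responder cells and 53.4 CPM in non-responder cells, and Ccr2 was at 22.2 and 84.6 CPM, a log2 ratio of -1.93 [-2.05, -1.82]. Ccl2 was at 718.9 and 1165 CPM there, Ccl7 at 935.9 and 837.0 CPM, and Ccl12 at 978.5 and 2167 CPM. In monocyte-like cells Ccr2 was at 123.9 CPM in the responder library and 393.7 CPM in the non-responder library, a log2 ratio of -1.67 [-1.82, -1.52]. Ccl2 was at 334.5 and 1375 CPM in them, a log2 ratio of -2.04, Ccl7 at 336.6 and 653.5 CPM, and Ccl12 at 409.1 and 495.4 CPM. Ccr2 and Ccl2 were thus lower in the responder library in both kinds of cells, while the Ccl7 ratio was 0.16 in macrophage-like and -0.96 in monocyte-like cells. Most responder monocyte-like cells lay in cluster 3 and most non-responder ones in cluster 10, so the class ratios also set these clusters against each other. Within clusters 3 and 10 the ratio was -1.43 and -0.17 for Ccl2, -0.09 and 1.51 for Ccl7, and -2.10 and -0.82 for Ccr2. The monocyte-like share of cells was 16.8% [15.7-18.0] in the responder library and 7.99% [6.97-9.11] in the non-responder library, so the lower Ccr2 level stood beside the larger share of Ccr2-rich cells.

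**Figure D1:**
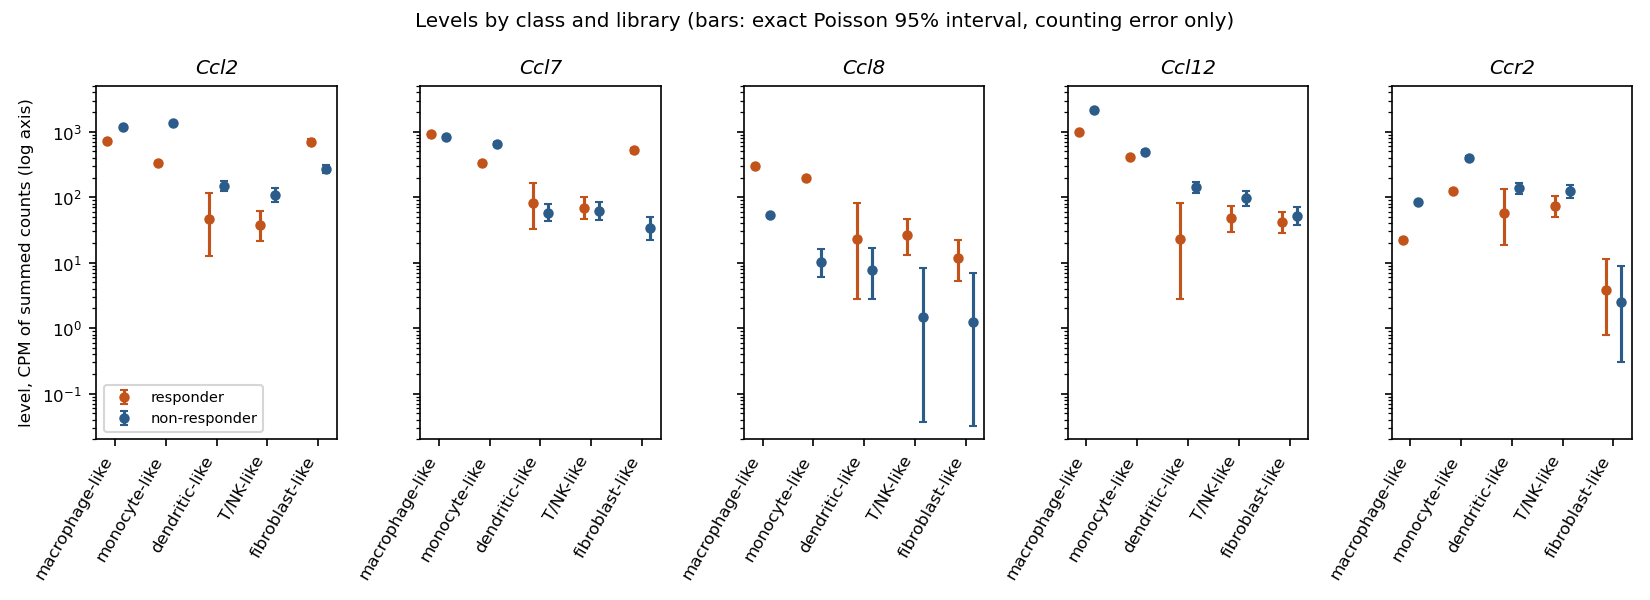
Level of each gene in CPM of summed counts (log axis) in 5 cell classes, with responder (orange) left of non-responder (blue) and bars giving exact Poisson 95% intervals. Ccl8 stands higher in responder than in non-responder macrophage-like cells (300.03 and 53.4 CPM), and Ccr2 lower (22.2 and 84.6 CPM).

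The share of cells with a UMI was read after each cell had been thinned to 3000 UMIs, which left out 69 responder and 2 non-responder cells of the class. Ccr2 was detected in 8.54% [7.70-9.45] of responder monocyte/macrophage-like cells, against 19.5% [17.9-21.1] of non-responder ones, and unthinned in 17.8% against 37.1%. In fibroblast-like cells, which should lack Ccr2, it was detected in 1 of 19 responder cells and 1 of 20 non-responder cells. Ccl8 was detected in 18.6% [17.5-19.9] of responder cells, against 7.07% [6.07-8.18] of non-responder cells, and unthinned in 30.7% against 12.6%. Ccl2 was seen in 58.2% and 64.1%, Ccl7 in 51.9% and 42.4%, and Ccl12 in 55.3% and 58.1% of thinned responder and non-responder cells. Without thinning these became 78.1% and 82.5% for Ccl2, 72.0% and 64.9% for Ccl7, and 75.1% and 79.4% for Ccl12.

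Ccl2 and Ccl12 thus differed more in level than in the share of cells with a UMI. In thinned cells with a Ccl12 UMI the mean count was 4.73 in responder and 9.54 in non-responder cells, and for Ccl2 it was 3.31 and 5.02. For Ccl8 that mean was 4.21 in responder and 2.22 in non-responder cells. T/NK-like cells, which should lack the ligands, give the background of such shares, at median depths of 3718 responder and 5929 non-responder UMIs against 10106 and 11938 in monocyte/macrophage-like cells. Thinned, 12.3% of their responder cells and 12.5% of their non-responder cells had a Ccl2 UMI, against 18.5% and 11.4% for Ccl7, and 9.88% and 21.6% for Ccl12. Ccl8 was found in 8.64% of thinned responder T/NK-like cells and in 0 of 88 non-responder ones, where 3 cells would be 3.41% and the upper Clopper-Pearson limit is 4.11%.

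Among macrophage-like clusters, Ccl2, Ccl7 and Ccl12 were highest where interferon-induced genes led. In each library, clusters are ranked here and in what follows where they held 20 of its cells or more. Cluster 8, which leads with Ifit3, Ifit3b and Oasl1, held 341 responder and 12 non-responder cells and cluster 12, which leads with Ifit3b, Ifit3 and Ifit2, held 145 cells, all from the non-responder library. Ccl12 was at 1732 CPM [1688-1777] in responder cells of cluster 8, ahead of the 1202 CPM of cluster 9, which leads with DNA replication genes such as Ung and Mcm7. In the non-responder library Ccl12 was at 5648 CPM [5538-5760] in cluster 12, followed by 3118 CPM in its 34 cells of cluster 4, which leads with H2afx and Birc5, genes of dividing cells. Ccl7 was also higher in these clusters than in other macrophage-like ones, at 1456 CPM in responder cells of cluster 8 and 1589 CPM in non-responder cells of cluster 12. Ccl2 was at 896.9 CPM in responder cells of cluster 8, where the interval overlapped that of cluster 9, and at 1665 CPM in non-responder cells of cluster 12. Outside the macrophage-like clusters, responder cells of monocyte-like cluster 10 stood above cluster 8 in Ccl2, at 1275 CPM, and Ccl7, at 1966 CPM. In Ccl12 they stood below it, at 563.4 CPM.

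The lowest macrophage-like levels of Ccl2, Ccl7 and Ccl12 were in cluster 6, which leads with Mmp12, Pmp22 and the haem oxygenase gene Hmox1 and also with the hypoxia-induced genes Adm and Hilpda. Its 27 responder cells had 347.2 CPM of Ccl2, 225.4 CPM of Ccl7 and 419.3 CPM of Ccl12. Its 506 non-responder cells had 762.6 CPM of Ccl2, 616.9 CPM of Ccl7 and 1098 CPM of Ccl12, each the lowest among the macrophage-like clusters of that library, although for Ccl2 the interval overlapped that of cluster 1. Cluster 6 also had the lowest macrophage-like level of Ccr2. Its 27 responder cells had no count, where 3 counts would be 13.5 CPM. The upper limit of 16.6 CPM there lay within the intervals of clusters 1 and 8. In its non-responder cells Ccr2 was at 20.9 CPM [17.3-25.1], an interval that overlapped that of cluster 1.

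Ccl8 was distributed differently from the other ligands. Among responder macrophage-like clusters it was highest in cluster 2, at 509.7 CPM [494.1-525.8], a cluster of 794 responder and 7 non-responder cells that leads with the chemokine gene Ccl5, Fam26f and Dnase1l3. Cluster 8 followed at 362.1 CPM, cluster 9 at 295.3 CPM, cluster 4 at 248.4 CPM, cluster 1, which leads with Cox4i2 and Aldoc, at 211.6 CPM and cluster 5, which leads with Gbp2b and Cxcl9, at 163.2 CPM. The intervals of these macrophage-like clusters did not overlap. In the non-responder library the highest Ccl8 level was in cluster 0, which leads with Fcrls, Gpr34 and Slco2b1, at 73.7 CPM [68.9-78.7], and cluster 12 at 57.4 CPM overlapped it. Among macrophage-like clusters with 20 cells or more, every one of the responder library except cluster 6, with 1 count and 4.51 CPM, thus lay above every one of the non-responder library in Ccl8.

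Among clusters with 20 cells or more of the library, the monocyte-like ones had the highest Ccr2 levels in both libraries. Ccr2 was at 216.2 CPM [170.4-270.7] in cluster 10 and 118.5 CPM [109.9-127.5] in cluster 3 of the responder library. It was at 382.8 CPM [353.0-414.5] in cluster 10 and 507.9 CPM [400.8-634.8] in cluster 3 of the non-responder library, where the intervals overlapped. Next in the responder library were T/NK-like cluster 11 at 40.2 CPM and macrophage-like cluster 9 at 39.99 CPM, and the other macrophage-like clusters with any count lay between 16.3 and 22.8 CPM. In the non-responder library dendritic-like cells followed at 137.2 CPM and T/NK-like clusters 11 and 17 at 126.0 and 106.5 CPM, and the macrophage-like clusters 0, 4, 7 and 12 lay at 106.8, 97.2, 96.7 and 90.6 CPM with overlapping intervals. Among non-responder cells, most of those called macrophage-like thus belonged to clusters with more Ccr2 RNA than any macrophage-like cluster of 20 or more responder cells had.

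**Figure D2:**
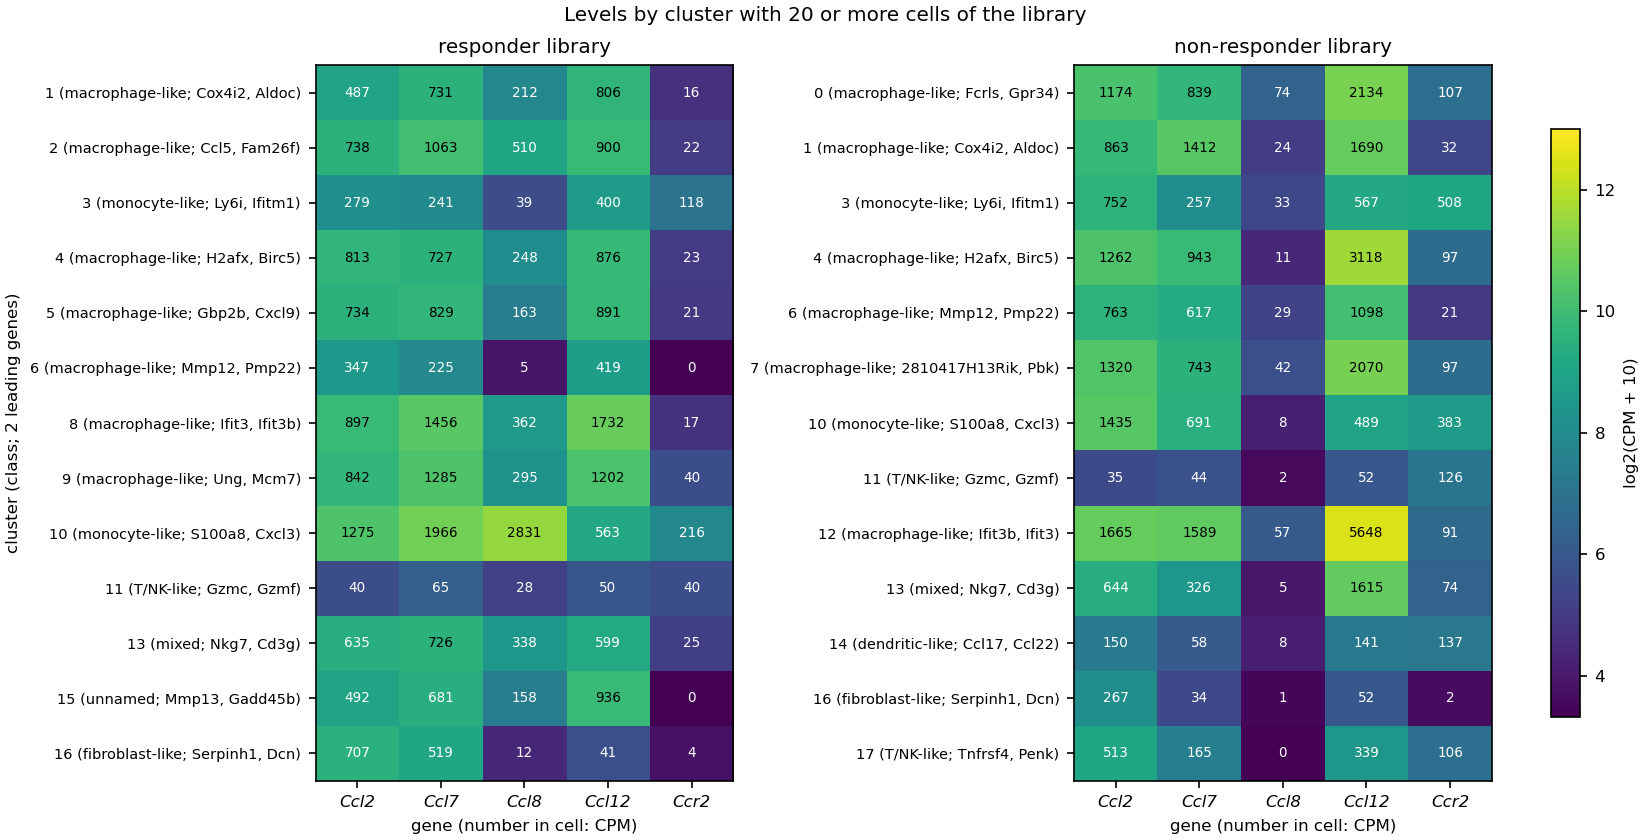
Levels of the 5 genes (columns) in each cluster with at least 20 cells of the library (rows, with class and 2 leading genes), responder left and non-responder right, coloured by log2(CPM + 10) with the CPM printed in each cell. Ccr2 is highest in monocyte-like clusters 3 and 10 in both libraries, and Ccl12 is highest in the Ifit3-led clusters, at 1732 CPM in responder cluster 8 and 5648 CPM in non-responder cluster 12.

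Within-cluster comparisons were possible in clusters 1, 3, 4, 6 and 10, where both libraries had 20 cells or more. Ccl2 was lower in responder cells in 5 of 5, with log2 ratios of -1.43 to -0.17, and Ccr2 in 4 of the 4 that gave a ratio, at -2.10 to -0.82. Ccl8 was higher in responder cells in 4 of the 4 that gave a ratio, at 0.24 to 8.43. The smallest of these, in cluster 3, had an interval of [-0.999, 1.88]. Cluster 6, with 1 responder Ccl8 count, gave no ratio and lay the other way. Ccl8 was there at 4.51 CPM [0.11-25.1] in responder and 29.0 CPM [24.6-33.9] in non-responder cells, with overlapping intervals. Ccl12 was lower in 4 of 5 and Ccl7 in 4 of 5, and cluster 10 was the exception for both. For Ccl7 in cluster 3 the ratio was -0.09, with an interval of [-0.55, 0.40]. In cluster 10 Ccl7 was at 1966 CPM in responder and 691.3 CPM in non-responder cells, and Ccl12 at 563.4 and 488.6 CPM, with an interval of [-0.03, 0.43] on its ratio. In cluster 1, by contrast, Ccl7 was at 731.5 CPM in responder and 1412 CPM in non-responder cells. These clusters held as few as 20 cells of 1 library, which the clustering had placed there by likeness to cells of the other.

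The Ccl8 level of responder monocyte-like cells rested on a handful of cells. Their class level was 193.8 CPM, against 10.3 CPM in the non-responder library, and 995 of the 1229 counts came from the 52 responder cells of cluster 10, at 2831 CPM. A single cell of 12954 UMIs held 488 of these counts, and without it the level was 1498 CPM [1370-1634]. The 9 cells with 10 or more Ccl8 counts held 982 of the 995, and their selection by that count makes this a description. In cluster 3, with 685 responder and 20 non-responder cells, Ccl8 was at 39.1 and 33.0 CPM. After thinning, 5.56% of responder monocyte-like cells had a Ccl8 UMI, which is no more than in T/NK-like cells of that library, against 0.976% of non-responder ones.

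Ccl8 was also the ligand whose counts were held by the fewest cells. In thinned monocyte/macrophage-like cells, the 1% of cells with the highest Ccl8 count held 33.3% of its counts among responder cells and 43.5% among non-responder cells. The corresponding share was 8.82% and 10.3% for Ccl2, 12.1% and 14.9% for Ccl7, and 12.5% and 13.6% for Ccl12. The top 10% of cells held 88.1% of responder and 100% of non-responder Ccl8 counts, against 45.1% and 47.4% for Ccl2. The 100% was fixed by detection, as 166 non-responder cells had a Ccl8 UMI and the top 10% were 234 cells. Responder Ccr2 reached 100% in the same way, with 345 such cells in a top 10% of 403. A share held by few cells can rise when few cells have any count. In the responder library Ccr2 was detected in fewer thinned cells than Ccl8 (345 against 753), and its top 1% of cells held 24.9% of its counts. In the non-responder library Ccl8 was detected in fewer cells than Ccr2 (166 against 457), so its higher share there cannot be told apart from detection. Without the 1% of cells with the highest count of each gene, the Ccl8 ratio was 2.68.

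**Figure D3:**
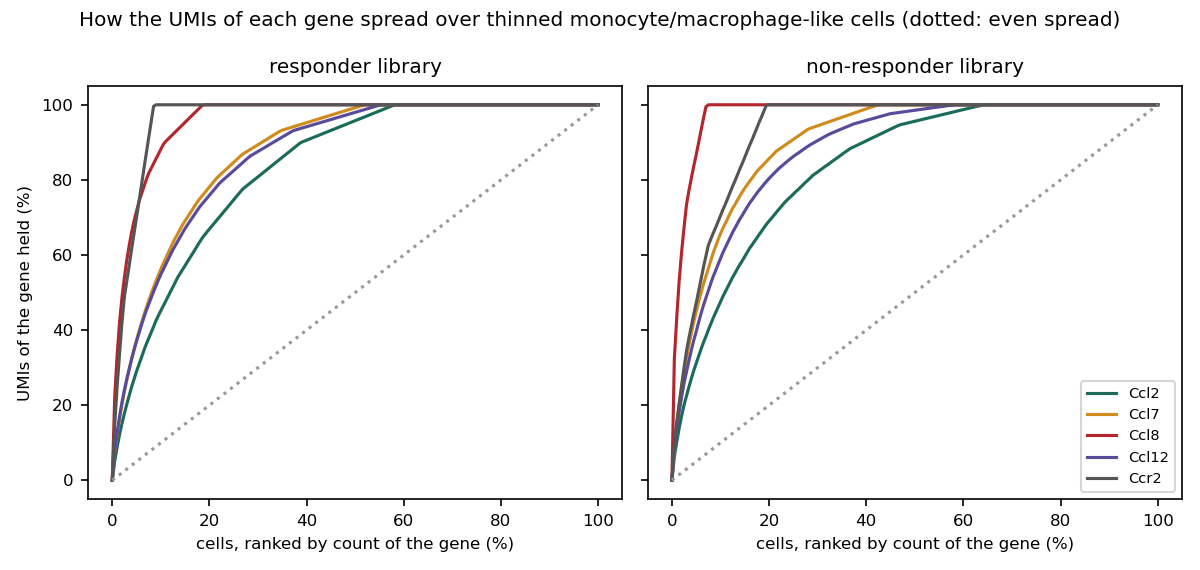
Cumulative percent of each gene's UMIs (vertical axis) held by thinned monocyte/macrophage-like cells ranked from the highest count down (horizontal axis, percent of cells), responder left and non-responder right, with a dotted line for an even spread. The top 10% of cells hold 88.1% of responder and 100% of non-responder Ccl8 UMIs, against 45.1% and 47.4% of Ccl2 UMIs. The 100% is fixed by detection, as 166 non-responder cells had a Ccl8 UMI and the top 10% are 234 cells.

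The genes were next read along C1q, the complement component whose 3 chains mark mature tissue macrophages. Thinned cells were split into 5 ranges by their summed C1qa, C1qb and C1qc counts, from 0 to 48 up to 92 to 214, with the same limits in both libraries. Responder cells numbered 591, 672, 825, 987 and 964 over these ranges and non-responder cells 697, 657, 419, 323 and 252. Ccr2 was at 115.6, 39.2, 24.6, 26.3 and 19.0 CPM over the rising ranges in the responder library and at 187.5, 91.8, 59.7, 65.0 and 54.2 CPM in the non-responder library. It was highest in the lowest range in both, and lower in responder than in non-responder cells in every range, with no overlap of intervals. In the lowest range, 380 of 591 responder cells were monocyte-like, against 184 of 697 non-responder cells.

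Ccl8 ran the other way along C1q. It was at 109.4, 193.5, 244.0, 287.1 and 390.4 CPM over the rising ranges in the responder library and at 20.6, 34.5, 71.6, 97.0 and 96.6 CPM in the non-responder library. Ccl2 and Ccl12 were highest in a middle range in the non-responder library, where Ccl2 reached 1278 CPM in the second range and Ccl12 2676 CPM in the third. In the responder library Ccl2 lay between 447.3 CPM in the lowest and 717.0 CPM in the fourth range, and Ccl12 between 416.2 and 1061 CPM in the same ranges. Ccl7 was lower in responder than in non-responder cells in the 2 lowest ranges, at 382.4 against 519.4 CPM and 728.7 against 874.2 CPM, and higher in the 3 upper ones, at 910.8 against 795.0 CPM in the highest. The near-equal Ccl7 level of the whole class therefore joined ranges of opposite direction.

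**Figure D4:**
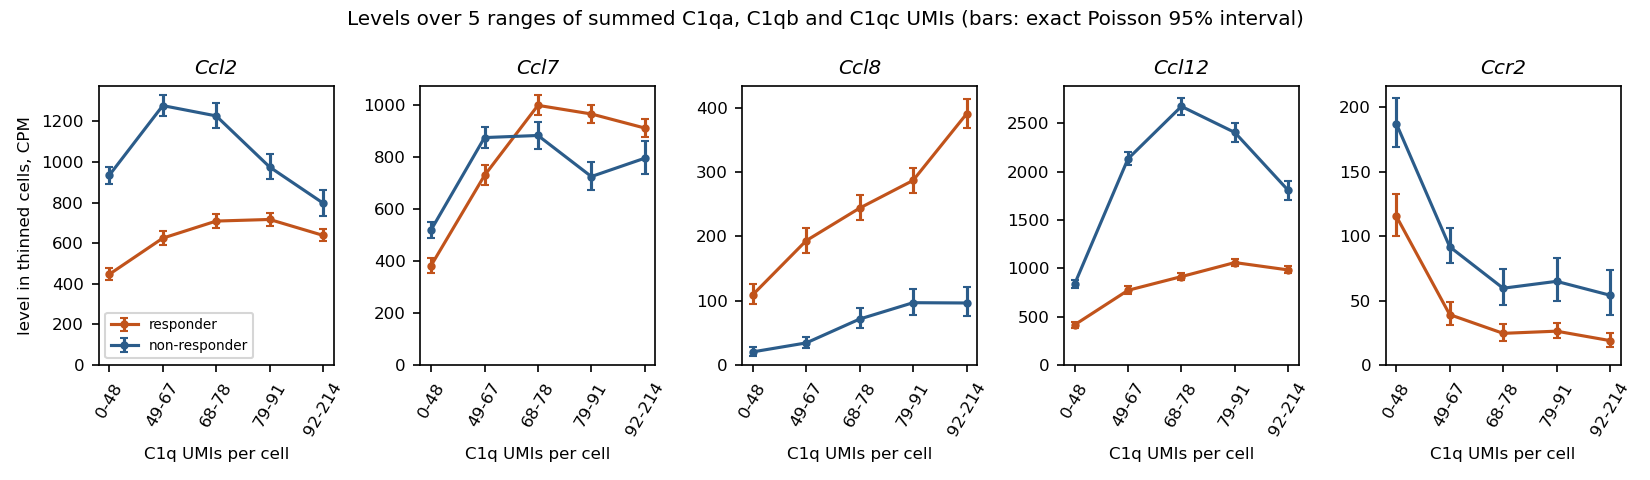
Level of each gene in CPM (vertical axis) over 5 rising ranges of summed C1qa, C1qb and C1qc UMIs in thinned cells (horizontal axis), responder in orange and non-responder in blue, with exact Poisson 95% intervals. Ccr2 declines from 115.6 to 19.0 CPM in the responder and from 187.5 to 54.2 CPM in the non-responder library, while Ccl8 climbs from 109.4 to 390.4 CPM and from 20.6 to 96.6 CPM.

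Monocyte/macrophage-like cells, a class set by clusters, were also split by single genes that mark cell states. The splits by Ly6c2, Folr2, Mrc1, Ifit3, Rsad2 and Hilpda were added after seeing the data. Those genes and Fcrls are among the leading genes of clusters, so the splits are not independent of the clusters. Cells with a UMI of Ly6c2, the classical monocyte antigen, had 132.6 CPM of Ccr2 against 28.2 CPM in cells without one in the responder library, and 419.4 against 84.7 CPM in the non-responder library. Cells with an Fcrls UMI, a gene of resident-type macrophages and microglia, had less Ccr2, at 19.7 against 43.6 CPM in the responder library and 69.5 against 173.4 CPM in the non-responder library. Cells with a UMI of the folate receptor gene Folr2 had 1450 CPM of Ccl8 against 226.8 CPM without in the responder library, a log2 ratio of 2.68 [2.54, 2.82]. In the non-responder library they had 141.3 against 40.4 CPM, a log2 ratio of 1.81 [1.48, 2.13]. Cells with a UMI of the mannose receptor gene Mrc1 likewise had more Ccl8, at 819.6 against 231.2 CPM in the responder library and 109.9 against 41.7 CPM in the non-responder library.

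Cells with an Ifit3 UMI had more Ccl12, at 1143 against 740.7 CPM among responder cells and 2989 against 1519 CPM among non-responder cells. They had more Ccl7, at 1098 against 708.0 CPM among responder cells and 944.8 against 682.6 CPM among non-responder cells. They also had more Ccl8, at 321.1 against 232.8 CPM and 88.9 against 41.7 CPM in the same order. Their Ccl2 was at 737.6 against 596.2 CPM among responder cells and nearly level among non-responder cells, at 1127 against 1058 CPM. Split by an Rsad2 UMI, non-responder Ccl2 (1042 against 1080 CPM) and Ccl8 (50.8 against 52.5 CPM) had log2 intervals that spanned 0. Cells with a Hilpda UMI had less Ccl12, at 530.6 against 923.2 CPM in the responder library and 1110 against 2112 CPM in the non-responder library, and they had less Ccl2, at 390.2 against 680.7 CPM among responder cells and 867.5 against 1147 CPM among non-responder cells. Some contrasts changed sign between the libraries. Cells with a Ly6c2 UMI had less Ccl2 in the responder library, at 488.1 against 660.5 CPM, and more in the non-responder library, at 1428 against 1049 CPM. Cells with an Arg1 UMI had 531.4 against 693.7 CPM of Ccl2 in the responder library, while in the non-responder library they had 1102 against 1055 CPM, with an interval on the log2 ratio that spanned 0.

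Detection of the genes in the same thinned cell was set against the number that their shares give within each cluster. Ccl2, Ccl7 and Ccl12 were found together more often than that in both libraries. Both Ccl2 and Ccl7 were seen in 1557 responder cells, where 1304 were given by the margins (ratio 1.19 [1.14-1.26]), and in 817 non-responder cells, where 652.5 were given (1.25 [1.17-1.34]). The ratio was 1.14 in each library for Ccl2 with Ccl12, and 1.16 in responder and 1.24 in non-responder cells for Ccl7 with Ccl12. Ccl8 was seen with Ccl2 at ratios of 1.06 and 1.02 and with Ccl12 at 1.02 and 1.17, with intervals that spanned 1 in both libraries. With Ccl7 it was seen at 1.098 [1.002-1.202] in responder cells and 1.20 [0.96-1.48] in non-responder cells.

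Ccr2 and Ccl8 were found together less often than their shares give. Both were seen in 30 responder cells, where 49.2 were given (ratio 0.61 [0.41-0.87]), and in 13 non-responder cells, where 29.8 were given (0.44 [0.23-0.75]). With cells thinned to 1500 UMIs the ratio was 0.54 in the responder library and 0.84 in the non-responder library. For Ccr2 with Ccl2, Ccl7 and Ccl12 the intervals spanned 1 in both libraries. A Ccr2 UMI was found in 3.98% of responder cells with and 9.59% without a Ccl8 UMI, and in 7.83% of non-responder cells with and 20.3% without one.

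Counted over all 4 ligands, the share of cells with a Ccr2 UMI was 12.2%, 11.2%, 8.25%, 5.73% and 2.70% in responder cells with UMIs of 0, 1, 2, 3 and 4 of the ligands. In non-responder cells it was 19.5%, 20.8%, 23.0%, 15.4% and 10.7%. Responder shares thus fell with each added ligand. Neighbouring intervals overlapped, but those of 0 ligands [9.84-15.0] and 4 ligands [1.09-5.49] did not. In the non-responder library a decline was seen above 2 ligands, from an interval of [19.8-26.4] at 2 to [12.7-18.5] at 3. The value at 4 ligands rests on 6 of 56 cells, and its interval [4.03-21.9] overlapped that at 3. Ccr2 UMIs were therefore found in droplets with and without ligand UMIs in both libraries. T/NK-like cells, which should lack the ligands, also had ligand UMIs, and doublets were in effect not removed. Whether the same cell made both transcripts was not tested. These shares pool all clusters of the class.

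**Figure D5:**
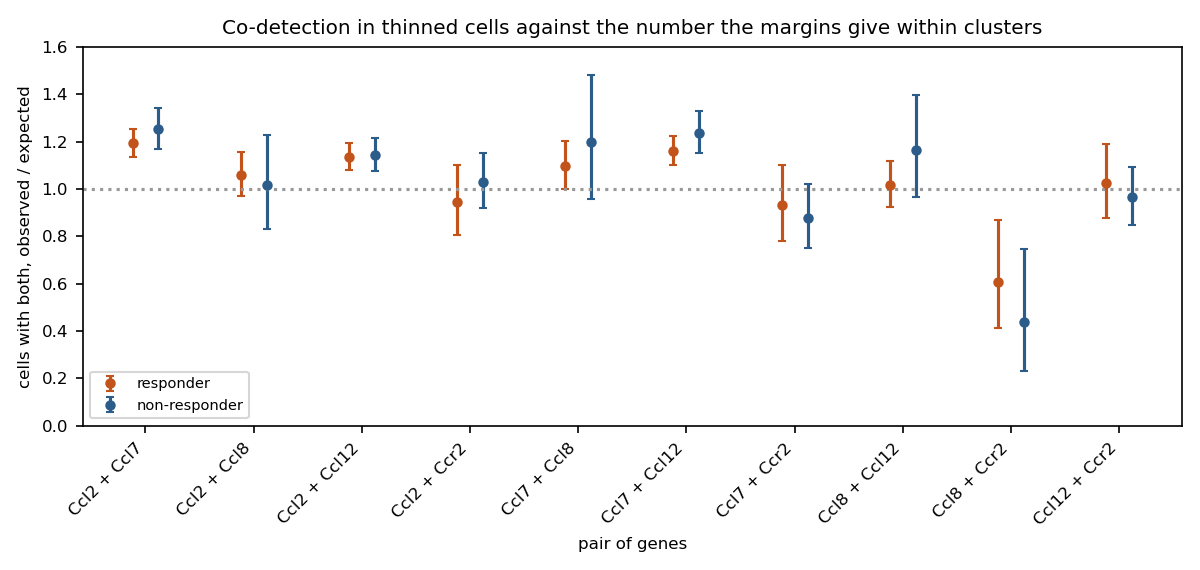
Observed over expected number of thinned monocyte/macrophage-like cells with UMIs of both genes (vertical axis, expected from the shares within each cluster) for the 10 pairs (horizontal axis), responder in orange left of non-responder in blue, with 95% intervals and a dotted line at 1. Ccl8 with Ccr2 lies below 1 in both libraries (0.61 and 0.44), and Ccl2 with Ccl7 lies above it (1.19 and 1.25).

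Of the other named cell types, fibroblast-like cells alone had Ccl2 at a level like that of macrophage-like cells, and this in the responder library. The 22 responder fibroblast-like cells had 706.8 CPM of Ccl2 [648.8-768.7] and 519.1 CPM of Ccl7 [469.5-572.5], against 267.5 CPM [232.9-305.8] and 33.7 CPM [22.2-49.1] in the 20 non-responder ones. Their leading genes included Dcn, Col3a1 and Sparc as well as Rhox5 and Tm4sf1. In each library those were the 3 of 7 fibroblast markers that reached 50 CPM, while Col1a1 was at 0 and 16.2 CPM, Col1a2 at 2.59 and 1.25 CPM, Lum at 2.59 and 0 CPM and Pdgfrb at 9.06 and 35.0 CPM, so the name rests on part of the list. They had little Ptprc RNA, and 6 of 14 macrophage markers reached 50 CPM in the responder ones and 5 in the non-responder ones. Over both libraries their median depth was 29277 UMIs. At 50 CPM with a UMI in 10% of cells, 4 of 5 cycling markers and 0 of 4 epithelial or tumour markers were on. Their Ccl12 level was 41.4 and 52.5 CPM and their Ccl8 level 11.7 and 1.25 CPM, so that Ccl2 and Ccl7 were not joined there by the other ligands. The share of macrophage RNA in these levels was not tested, nor was whether these cells were fibroblasts or MC38-GFP tumour cells.

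T/NK-like cells had 74.0 CPM of Ccr2 among responder cells and 123.0 CPM among non-responder cells, with intervals of 50.3 to 105.0 and 98.0 to 152.5 CPM. Of the 31 responder counts, 15 came from the 4 responder cells of cluster 17, and in cluster 11 alone Ccr2 was at 40.2 CPM [23.0-65.2] in responder cells and 126.0 CPM [98.6-158.7] in non-responder cells. Their Ccl2 was at 38.2 and 108.2 CPM and their Ccl12 at 47.7 and 96.3 CPM. The 20 non-responder cells of cluster 17 held 53 of the 73 Ccl2 counts and 35 of the 65 Ccl12 counts. In cluster 11 alone Ccl2 was at 40.2 CPM in responder cells and 35.0 CPM in non-responder cells, and Ccl12 at 50.2 and 52.5 CPM, with overlapping intervals for both genes. The thinned shares of these ligands given above stand as the level in cells that should lack them. The 80 non-responder dendritic-like cells had a Ccr2 UMI in 21.3% of thinned cells and 137.2 CPM, and a Ccl2 UMI in 13.8%, close to the 12.5% of T/NK-like cells. Only 11 dendritic-like cells came from the responder library, with 57.5 CPM of Ccr2 from 5 counts.

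Genes of the wider chemokine system were read in monocyte/macrophage-like cells from 4 fixed lists, with a gene measured at 50 or more counts in both libraries together. Of 12 other chemokine and growth factor genes, mostly of the CC family, 8 were measured, 1 over 2-fold higher in the responder library and 5 over 2-fold lower, with a median log2 ratio of -1.20. Ccl5, a chemokine that attracts T cells and monocytes, was the higher one, at 1749 CPM in responder and 425.2 CPM in non-responder cells (2.04). The lower ones were Ccl6 at 138.2 and 330.8 CPM (-1.26), Ccl9 at 149.6 and 482.5 CPM (-1.69), Ccl17 at 1.096 and 11.6 CPM (-3.40), Ccl24 at 0.163 and 7.68 CPM (-5.56), and Csf1, the macrophage growth factor gene, at 0.816 and 1.81 CPM (-1.15). Ccl17 and Ccl24 rested on 47 and 7 counts in the responder library.

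Of 12 chemokine and growth factor receptors 5 were measured and none differed over 2-fold. Among them the log2 ratios were -0.63 for Ccr1, -0.50 for Cx3cr1, the receptor of non-classical monocytes and tissue macrophages, and -0.51 for Csf1r, the CSF1 receptor gene, beside -1.47 for Ccr2. None of the 11 measured genes of CCR2 signalling, such as G proteins and arrestins, passed 2-fold, and their median was -0.13. The 12 regulators of Ccl2 transcription had a median of 0.26, and none was over 2-fold lower in the responder library. Over 2-fold higher there was the interferon regulatory factor gene Irf1, at 168.8 CPM in responder and 51.5 CPM in non-responder cells (1.71). Beside these lists, 7.87% of all tested genes passed 2-fold in either direction and their median was -0.09.

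The genes whose levels followed each member most closely were named by Pearson's r of log2(CPM + 10) over 26 cluster-by-library profiles, among 7290 genes. For Ccl2 they were Cln8 (0.85), Tubb2a (0.84) and Dab2 (0.83), and for Ccl7 Siglec1 (0.85), Grn (0.84) and Abhd12 (0.84). For Ccl8 they were Nipa2 (0.88), Scarf1 (0.87) and Plekhm1 (0.86). For Ccl12 they were Blnk (0.94) and Lgmn (0.93), and for Ccr2 Far1 (0.82), Gpr132 (0.77) and Crip1 (0.77). Among the members themselves, r was 0.84 for Ccl2 with Ccl7, 0.76 for Ccl2 with Ccl12 and 0.78 for Ccl7 with Ccl12, while Ccr2 lay between -0.10 and 0.13 with each ligand. With Ccl8, r was 0.37 for Ccl2, 0.66 for Ccl7 and 0.36 for Ccl12. Within the 13 profiles of each library these became 0.61, 0.80 and 0.62 among responder profiles and 0.62, 0.71 and 0.72 among non-responder ones. Ccl8 with Ccr2, at -0.10 over all profiles, stood at 0.51 and 0.14. In the same order of libraries r was 0.94 and 0.87 for Ccl2 with Ccl7. It was 0.60 and 0.85 for Ccl2 with Ccl12, and 0.69 and 0.94 for Ccl7 with Ccl12. Among responder profiles Ccl2 and Ccl7 were thus no closer to Ccl12 than to Ccl8. Profiles of 1 library share its preparation and depth, and these values describe likeness only.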

How the data were processed

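Per the labels' protocols, libraries of sorted CD45+ cells were made with the Chromium 3' v3 kit of 10x Genomics. The submitters' processing notes name Cell Ranger 1.1.0 and the builds mm10 and GRCm38, with no annotation release. For each library the authors deposited raw UMI counts per gene and filtered barcode. Of 4425 responder and 2580 non-responder barcodes (45866561 and 32032569 UMIs), 4 were removed for under 500 genes and 61 for a mitochondrial share over 10%, 1 of them for both. Scrublet marked 2 of 6941 cells, so doublets were in effect not removed.

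Both libraries were clustered together without batch correction in scanpy 1.11.5, on 2000 variable genes other than the 5 members, 30 components, 15 neighbours and Leiden resolution 1. Names rest on 95 markers, 4 of them not in the files, and a marker counted at 50 CPM with a UMI in 10% of cells. T/NK-like clusters had 50% of the T cell or NK markers, and macrophage-like ones 75% of the macrophage markers. Fibroblast-, dendritic- and monocyte-like clusters had 3 of their own markers among 10 leading genes. Clusters with T cell and macrophage markers were called mixed, and shallow ones (cluster 15) stayed unnamed. This scoring was chosen with the clusters in view. Cluster 5 leads with Xcr1 and Cd79b, markers of other types, when set against all other clusters.

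Counts were summed per class and library, without tests between groups. CPM has exact Poisson intervals, shares Clopper-Pearson intervals and ratios conditional binomial intervals, from scipy 1.17.1, at 95%. The ratio was tested on simulated data. Monocyte-like clusters were kept in the compared class, and macrophage-like cells are also given alone. The 5 genes, the lists and the tests were chosen with earlier results of these data known. The genes named as alike were the 3 with the highest r for each member among genes of at least 500 UMIs, and in the lists every gene past 2-fold plus at most 4 others was named. Some results that these rules pick are not reported here. The alternatives tried concerned depth, scaling, cell weights, clustering, doublet scores and gates on single genes. Promoter sequences are from RefSeq (GRCm38.p6), where 3 of the 5 members had an entry.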

Additional observations from a re-analysis of the deposited data

How the results depend on the processing

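All values here are log2 ratios of responder over non-responder in monocyte/macrophage-like cells unless stated. Over 14 alternatives each, Ccl2 lay between -0.85 and -0.66, Ccl8 between 2.32 and 4.99, Ccl12 between -1.23 and -1.08 and Ccr2 between -1.93 and -1.35, without a change of direction. Ccl7 lay between -0.01 and 0.17 and turned to -0.011 with equal weight of the clusters shared by both libraries, which gave -0.66 for Ccl2, 4.99 for Ccl8 and -1.18 for Ccl12. That Ccl8 value gave cluster 10 the same weight as the other shared clusters. In it, 9 of the 52 responder cells held 982 of the 995 responder Ccl8 counts. Of the 70 values 41 moved by less than counting error. TMM scaling gave -0.71 for Ccl2, 0.15 for Ccl7, 2.60 for Ccl8, -1.09 for Ccl12 and -1.35 for Ccr2. Thinning to 3000 UMIs gave -0.74 for Ccl2, 0.17 for Ccl7, 2.32 for Ccl8 and -1.09 for Ccl12. The mean over cells gave -0.74 for Ccl2, 0.16 for Ccl7 and -1.08 for Ccl12, and resolution 0.5 gave -0.80, 0.069 and -1.18 for them. Without the 1% of cells of highest count the ratios were -0.79 for Ccl2, 0.11 for Ccl7, 2.68 for Ccl8, -1.18 for Ccl12 and -1.58 for Ccr2. Without the 5% of cells of highest doublet score Ccl12 was at -1.23. Without the monocyte-like clusters, an alternative chosen after seeing the data, Ccl2 was at -0.70, Ccl7 at 0.16, Ccl12 at -1.15 and Ccr2 at -1.93. Within thinned cells with a UMI of 1 gene, Ccl7 turned to -0.11 (Arg1), -0.13 (Spp1), -0.032 (Hilpda) and -0.55 (Ly6c2), the Hilpda and Ly6c2 gates having been added after seeing the data, as were the gates on Folr2, Mrc1, Ifit3 and Rsad2. The cause of these moves was not tested. No paired analysis was possible because each group has 1 library, and for the same reason no replicate could be left out. Depth limits Ccr2, whose share of cells with a UMI was 5.57% against 12.8% at 1500 UMIs (responder against non-responder) and 12.5% against 27.1% at 5000.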

Other observations

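Droplets of cluster 13, which carried both T cell and macrophage markers (97 responder and 24 non-responder), stood outside the class described above. In them Ccl2 was at 635.4 CPM in the responder library and 644.4 CPM in the non-responder library. Ccl7 was at 726.1 and 326.2 CPM, Ccl8 at 338.1 and 5.30 CPM, Ccl12 at 599.0 and 1615 CPM and Ccr2 at 24.5 and 74.3 CPM, in the same order of libraries. Cluster 15, left unnamed for its low UMI counts, held 43 responder and 3 non-responder cells. Its responder cells had 492.4 CPM of Ccl2, 680.8 CPM of Ccl7, 158.1 CPM of Ccl8, 936.2 CPM of Ccl12 and no Ccr2 count, where 3 counts would be 18.2 CPM.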
